A study of Mus musculus with 8 samples.

Results

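The glycolysis genes described here are 10 genes that carry glucose from uptake to lactate: the transporter Slc2a1, the hexokinases Hk1 and Hk2, the isomerase Gpi1, the phosphofructokinase subunits Pfkl, Pfkm and Pfkp, the pyruvate kinase gene Pkm, and the lactate dehydrogenase subunits Ldha and Ldhb. They were taken by symbol from a table of read counts for 46078 genes, and all 10 were among the 19241 genes that passed a filter on low counts. The table holds total RNA-seq of mouse oocytes at the germinal vesicle (GV) stage, with 4 libraries from Zp3-Cre females and 4 libraries from CNOT7&8 KO females, and each library was made from 100 oocytes. Both groups carry the Zp3-Cre transgene, which expresses Cre recombinase from an oocyte promoter during growth. In CNOT7&8 KO oocytes it acts on floxed alleles of Cnot7 and Cnot8, the paralogous deadenylase subunits of the CCR4-NOT complex, while the somatic follicle cells keep both genes. According to the methods, females on a C57BL/6J background were primed with PMSG at 4 weeks of age, cumulus cells were stripped with hyaluronidase and pipetting, and GV oocytes were kept in medium with dibutyryl-cAMP. The sources used here do not say how many females contributed to a library, so the p-values measure the spread between libraries. The comparison asks how the transcripts of this pathway differ in oocytes that lack both deadenylases.

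Glycolysis splits glucose into pyruvate, and lactate dehydrogenase interconverts pyruvate and lactate. The mouse oocyte is known to be a poor consumer of glucose: the surrounding cumulus and granulosa cells run glycolysis and hand it pyruvate, which it oxidizes in its mitochondria. The CCR4-NOT complex shortens the poly(A) tails of messenger RNAs, and in the oocyte, where transcripts are stored for later use, proteins bound to 3′UTR elements recruit it to chosen mRNAs.

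Of the 10 genes, Hk2 rose and Gpi1, Ldhb, Pfkl, Pfkm and Slc2a1 fell in CNOT7&8 KO oocytes at an adjusted p of at most 0.05 (edgeR's quasi-likelihood test, Benjamini-Hochberg adjustment over 19241 genes). Hk1, Pfkp, Pkm and Ldha did not pass. The 1 gene that rose stands against a background of 31.2% of all tested genes called higher, and the 5 that fell against 24.1% called lower. With a change of at least 2-fold also required, 1 gene was higher (Hk2) where 23.8% of all tested genes were, and 1 was lower (Slc2a1) where 6.56% were. Every KO library lay above every Zp3-Cre library for 1 gene, Hk2, against 27.0% of tested genes, and below for 5 genes, Gpi1, Ldhb, Pfkm, Pfkp and Slc2a1, against 21.4%. The median log2 fold change of the 10 genes was -0.36, and that of all tested genes was 0.12. The median of all genes differed with their level: it was 1.05 for genes under 1 CPM (normalized counts per 1000000 counts, Hk1's class), 0.47 from 1 to 10 CPM (Hk2), -0.17 from 10 to 100 CPM (Slc2a1, Gpi1, the 3 phosphofructokinase genes and Ldha) and -0.37 from 100 CPM (Pkm and Ldhb). Pkm and Ldhb, at -0.46 and -0.26, thus lay near the median of their class, which takes in all tested genes from 100 CPM. Slc2a1, Pfkm, Pfkl and Gpi1 lay below the median of their class.

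The libraries held 14943671 to 44092144 counts in the Zp3-Cre group and 8639444 to 26784110 in the CNOT7&8 KO group. Levels are given as CPM after TMM scaling, whose factors were 0.849 to 0.943 in the Zp3-Cre libraries and 1.07 to 1.14 in the KO libraries. Scaling by library size alone raised the median log2 fold change of all genes by 0.29, so that 74.7% of the passing genes were higher instead of 56.4%, and the fold changes below are relative to the TMM scale. RNA content per oocyte was not measured, although each library was made from 100 oocytes. For any somatic cells carried along, a change in cell number and a change in RNA per cell cannot be told apart. Among the targeted genes, Cnot8 fell to 21.0% of its control level (log2 fold change -2.25, edgeR adjusted p = 8.20e-08). Cnot7 fell to 77.1% (-0.38, adjusted p = 0.0105), with no overlap between the groups for either. By immunoblotting, the paper reports both proteins absent from KO oocytes, and the counts here do not measure protein. The 12 oocyte markers, Gdf9, Bmp15 and the zona pellucida genes among them, summed to 19313 to 22427 CPM in the controls and 15895 to 18400 CPM in the KO, with 1 higher and 7 lower. The 15 granulosa and cumulus markers summed to 143 to 193 CPM in the controls and 233 to 343 CPM in the KO. Of the 14 of these that were tested, 8 were higher and 1 was lower. The remaining marker, Foxl2, had at most 1 count in each control library. In the KO, Foxl2 was at 0.109 CPM in replicate 1 and at 0 CPM in replicates 2 to 4. Markers of theca and stroma summed to at most 3.57 CPM in any library and blood markers to at most 5.18 CPM, with 2 blood markers higher and the 4 hemoglobin genes at 0 throughout. Whether somatic RNA has a part in the glycolysis values was not tested. Zp3-Cre replicate 1, the deepest library, stood apart from the other controls: the chi-square of its counts against theirs was 141 to 210 per degree of freedom, a measure that grows with depth, against 7.85 to 17.7 among replicates 2 to 4. Among KO libraries the values were 40.7 to 91.8 for pairs with replicate 4, the deepest KO library, and 20.3 to 32.2 for the others. Without both of these libraries the log2 fold changes were -1.21 for Slc2a1, -0.91 for Pfkl, -0.48 for Pkm and 0.92 for Ldha. All 4 passed (edgeR adjusted p at most 0.00382), while Hk1 (0.78, adjusted p = 0.172) and Pfkp (-0.16, adjusted p = 0.328) did not. Because this removal takes out values that were seen to be extreme, it is not an independent test.

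**Figure D1:**
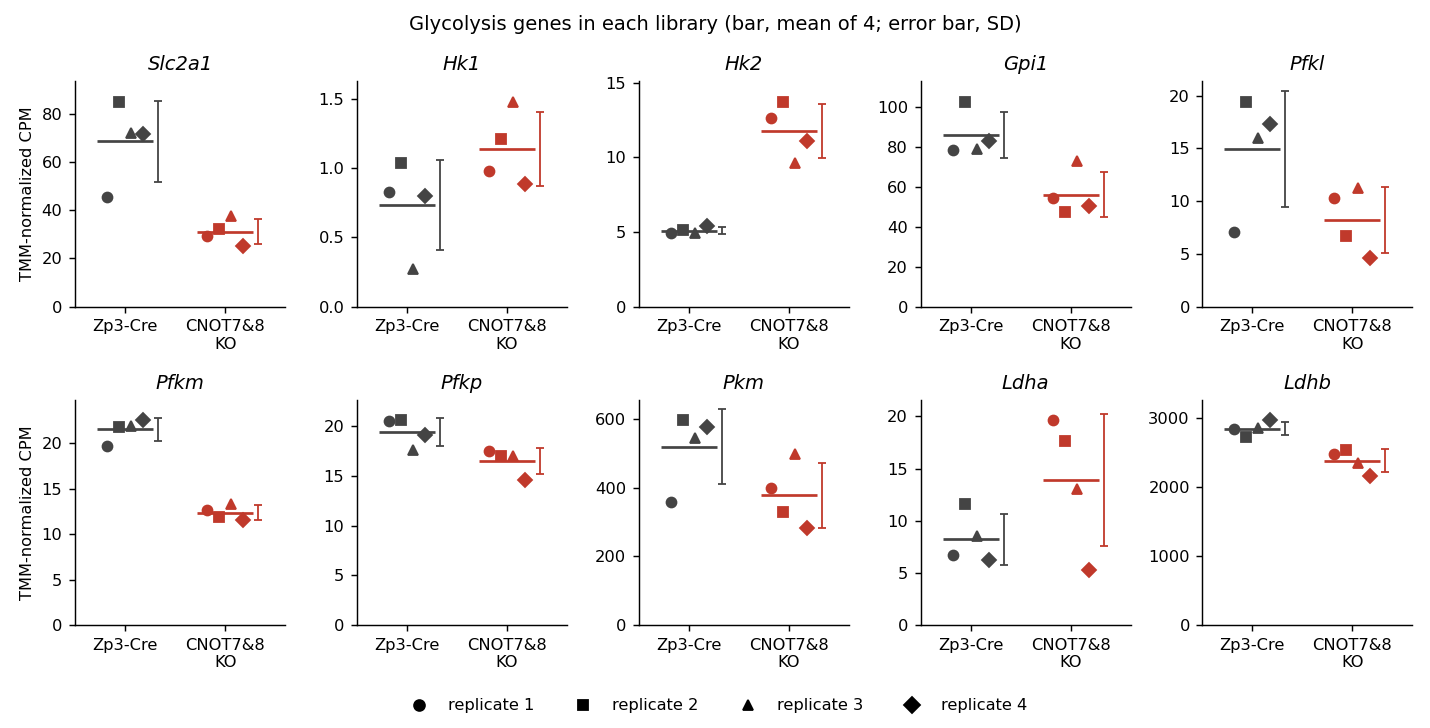
Level of each of the 10 glycolysis genes in the 4 Zp3-Cre (grey) and 4 CNOT7&8 KO (red) libraries, in TMM-normalized CPM on linear axes that start at 0. Horizontal bars are means, error bars are SDs, and symbols mark the replicate. Hk2 is higher in every KO library, Slc2a1, Gpi1, Pfkm, Pfkp and Ldhb are lower in every KO library, and for Hk1, Pfkl, Pkm and Ldha the groups overlap.

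The longest annotated 3′UTRs of the 10 genes, from 339 bases (Ldhb) to 2285 bases (Hk2), were searched, on the transcribed strand alone, for elements listed in the study's methods: the cytoplasmic polyadenylation element (CPE, UUUUAU), the Pumilio response element (PRE, UGUAAAUA) and the AU-rich element (ARE, AUUUA). A CPE was found in 5 of the 10 genes (3 copies in Slc2a1, 1 each in Hk2, Gpi1 and Ldha, and 5 in Pfkp), against 56.2% of 15132 tested genes. An ARE was found in 5 genes (Slc2a1, Hk2, Pfkl, Pfkm and Pfkp), against 69.7%, and a PRE only in Slc2a1, against 11.99%. Hk1, Pkm and Ldhb held none of the 3. In Pfkp, all 5 CPEs lie in the longer 3′UTR, and the shortest annotated one of 278 bases has none, so that with the shortest 3′UTRs 4 of the 10 genes had a CPE, against 39.4% of tested genes. One CPE per gene is given here from the GRCm38 genome, as DNA letters of the transcribed strand with the element in capitals, because Hk2, which rose, and Slc2a1 and Gpi1, which fell, all carry it.
Slc2a1 (element at chr4:119136673-119136678, plus strand): ataagcagcaggTTTTATaatttttttatt
Hk2 (chr6:82725925-82725930, minus strand): gccgactagcctTTTTATacgagttattta
Gpi1 (chr7:34202115-34202120, minus strand): ctgagtcagtacTTTTATctgttacttgtg
Ldha (chr7:46855509-46855514, plus strand): ttgtacaggataTTTTATatattatatgtg
Pfkp (chr13:6579872-6579877, minus strand): cctttggttggtTTTTATatggctaactga
The CPE in Ldha and the last CPE in Pfkp, the one printed, end 113 and 104 bases before the annotated 3′ end. The other CPEs in Pfkp end 254 to 582 bases before the 3′ end, and those in Slc2a1, Hk2 and Gpi1 lie 785 bases or more from it. A match of letters is a description and does not show that a protein binds there.

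Slc2a1 (ENSMUSG00000028645, GRCm38 chr4:119108711-119137983, plus strand) encodes GLUT1, the basal glucose transporter of many cells. Its level was 45.4, 85.0, 71.9 and 71.5 CPM in Zp3-Cre replicates 1 to 4 and 29.2, 32.1, 37.4 and 25.0 CPM in CNOT7&8 KO replicates 1 to 4. Every KO library lay below every control library, and control replicate 1 was the lowest of its group. Slc2a1 fell from 68.5 ± 16.6 to 31.0 ± 5.21 CPM (SD, n = 4 each), which is 45.2% of the control level. The log2 fold change was -1.14 (SE 0.19, 95% interval -1.56 to -0.73, edgeR adjusted p = 0.000304). It was the only one of the 10 genes to fall by at least 2-fold, and it passed in all 18 alternative analyses, with log2 fold changes from -1.30 to -0.87.

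Hexokinases trap glucose in the cell by phosphorylating it. Hk2 (ENSMUSG00000000628, chr6:82725025-82774454, minus strand), the inducible form known from muscle and proliferating cells, was at 4.92, 5.13, 4.90 and 5.39 CPM in the controls and 12.6, 13.7, 9.62 and 11.1 CPM in the KO. The control libraries were nearly alike and the lowest KO library stood well above all of them. Hk2 rose from 5.09 ± 0.229 to 11.8 ± 1.79 CPM, 2.31-fold (log2 fold change 1.21, SE 0.17, 95% interval 0.84 to 1.57, edgeR adjusted p = 8.29e-05). Its 3′UTR, the longest of the 10, carries 1 CPE and 7 AREs. The call held in all 18 alternatives, between 1.14 and 1.49. The granulosa marker Kitl, which encodes KIT ligand and was picked after its values were seen, was at 20.7, 11.9, 16.1 and 15.3 CPM in the controls and 50.9, 52.2, 30.3 and 40.1 CPM in the KO (log2 fold change 1.43). Kitl ranked the KO libraries as Hk2 did. Fshr and Cyp19a1 ranked them in this order too, and Fshr rose (log2 fold change 1.56) while Cyp19a1 fell (-0.90). Of the 14 tested granulosa and cumulus markers, however, 3 were lowest in KO replicate 3, as Hk2 was, and 7 in KO replicate 4. The part of these markers in the Hk2 values was not tested. Hk1 (ENSMUSG00000037012, chr10:62268855-62379908, minus strand), the form expressed in most tissues, was barely detected, with 31, 21, 4 and 11 counts in the control libraries and 9, 22, 24 and 26 in the KO libraries. These counts correspond to 0.829, 1.04, 0.272 and 0.801 CPM in the controls and 0.977, 1.21, 1.48 and 0.886 CPM in the KO. The ranges overlapped, and a difference was not detectable at this depth (log2 fold change 0.59, SE 0.39, 95% interval -0.25 to 1.44, edgeR adjusted p = 0.213).

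Gpi1 (ENSMUSG00000036427, chr7:34201330-34230336, minus strand) encodes the isomerase that turns glucose-6-phosphate into fructose-6-phosphate. It was at 78.6, 103, 78.9 and 83.0 CPM in the controls and 54.3, 47.3, 72.9 and 50.2 CPM in the KO. KO replicate 3 came nearest to the controls without reaching them. Gpi1 fell from 85.8 ± 11.5 to 56.2 ± 11.5 CPM (log2 fold change -0.61, SE 0.15, edgeR adjusted p = 0.00476). The call was lost under 2 scalings, by library size alone (-0.33, adjusted p = 0.107) and by TMM on genes of at least 10 CPM (-0.37, adjusted p = 0.0783).

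Phosphofructokinase, the main control point of the pathway, is a tetramer of subunits named for muscle (Pfkm), liver (Pfkl) and platelets (Pfkp). Pfkm (ENSMUSG00000033065, chr15:98092589-98132451, plus strand) was at 19.8, 21.9, 22.0 and 22.6 CPM in the controls and 12.7, 11.9, 13.4 and 11.6 CPM in the KO. Replicates were tight in both groups, with SDs of 1.23 and 0.820 CPM, and did not overlap. Pfkm fell to 57.5% of the control level (log2 fold change -0.80, SE 0.13, 95% interval -1.09 to -0.51, edgeR adjusted p = 0.000294) and passed in all 18 alternatives (-0.84 to -0.52). Pfkl (ENSMUSG00000020277, chr10:77986947-78010083, minus strand) was at 7.03, 19.4, 15.99 and 17.3 CPM in the controls and 10.3, 6.70, 11.3 and 4.56 CPM in the KO. Control replicate 1 sat inside the KO range, and the other 3 controls sat above it. Pfkl fell at the threshold (log2 fold change -0.88, SE 0.33, edgeR adjusted p = 0.0405), and the exact two-sided permutation test of its level gave p = 0.114. Its call was lost in 11 of 18 alternatives, with adjusted p up to 0.169, and was firmer without control replicate 1 (-1.13, adjusted p = 0.00311). Pfkp (ENSMUSG00000021196, chr13:6579768-6648777, minus strand) was at 20.5, 20.6, 17.6 and 19.1 CPM in the controls and 17.5, 17.0, 17.0 and 14.5 CPM in the KO. The groups lay side by side without overlapping, and the exact permutation p of 0.0286 is the smallest that 4 libraries against 4 can give. Pfkp did not pass in the fit over all genes (log2 fold change -0.24, SE 0.13, 95% interval -0.53 to 0.048, edgeR adjusted p = 0.141), and its sign turned under 2 scalings (0.044 by library size alone and 0.010 by TMM on genes of at least 10 CPM).

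Pkm (ENSMUSG00000032294, chr9:59656368-59679375, plus strand) encodes the M1 and M2 forms of pyruvate kinase, which share most exons and are not separated by counts per gene. It was at 360, 598, 544 and 578 CPM in the controls and 401, 331, 499.7 and 282 CPM in the KO. Control replicate 1 lay within the KO range, below KO replicates 1 and 3. The difference, from 520.01 ± 109 to 379 ± 94.3 CPM, did not pass (log2 fold change -0.46, SE 0.19, 95% interval -0.87 to -0.045, edgeR adjusted p = 0.0571). It passed in 5 of 18 alternatives, among them the fits without control replicate 1 (-0.60, adjusted p = 0.00569) and without KO replicate 3 (-0.61, adjusted p = 0.0246).

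Ldhb (ENSMUSG00000030246, chr6:142490249-142507957, minus strand), the heart-type subunit of lactate dehydrogenase, exceeded the control level of 99.9% of tested genes. It was at 2837, 2725, 2844 and 2966 CPM in the controls and 2471, 2537, 2345 and 2159 CPM in the KO. The groups did not overlap, and the shift was small. Ldhb fell to 83.7% of its control level (log2 fold change -0.26, SE 0.096, 95% interval -0.47 to -0.050, edgeR adjusted p = 0.0368). The call was lost in 13 of 18 alternatives, and one of these, scaling by library size alone, turned the sign (0.024, adjusted p = 0.828). With the edgeR exact test, which the study's methods name, the adjusted p was 0.0508.

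Ldha (ENSMUSG00000063229, chr7:46841475-46855627, plus strand), the muscle-type subunit, which is abundant in tissues that make lactate, was at 6.68, 11.6, 8.51 and 6.19 CPM in the controls and 19.7, 17.6, 13.0 and 5.31 CPM in the KO. KO replicates 1 to 3 lay above every control, and KO replicate 4 lay below every control. The difference did not pass (log2 fold change 0.74, SE 0.34, 95% interval -0.0080 to 1.48, edgeR adjusted p = 0.0855). It passed in 5 of 18 alternatives, including the fit without KO replicate 4 (1.04, adjusted p = 0.00355). The granulosa marker Inha, the inhibin alpha subunit, was at 38.4, 34.1, 26.5 and 4.77 CPM in the same 4 KO libraries and at 6.58, 4.44, 10.002 and 6.41 CPM in the controls. Gja1, the gap junction protein that couples granulosa cells to each other, was at 44.2, 46.8, 28.1 and 10.8 CPM in the KO and 12.9, 3.85, 7.62 and 7.07 CPM in the controls. Both markers, chosen after their values were seen, were lowest in KO replicate 4 as Ldha was. Of all 14 tested granulosa and cumulus markers, 7 were lowest among the KO libraries in replicate 4, 3 in replicate 3 (Cyp19a1, Fshr and Kitl), and 2 each in replicates 1 (Amh and Has2) and 2 (Cyp11a1 and Nr5a2). Nr5a2, among the most abundant of them, was at 126, 114, 117 and 132 CPM in the KO, highest in replicate 4. The part of these markers in the Ldha values was not tested.

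**Figure D2:**
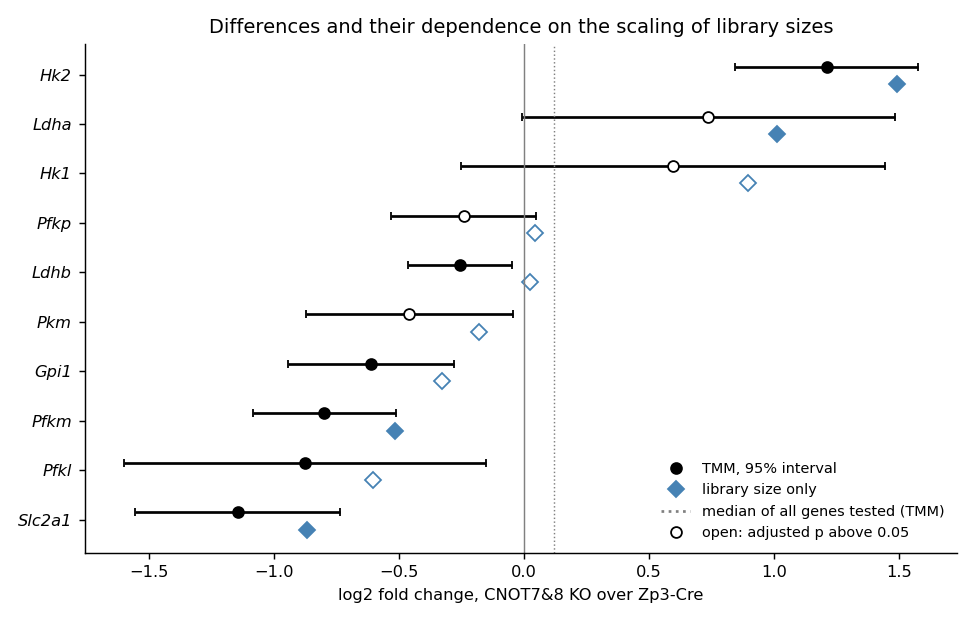
Log2 fold change of each glycolysis gene, CNOT7&8 KO over Zp3-Cre, with TMM scaling (circles, 95% intervals) and with scaling by library size alone (diamonds). Filled symbols passed at an adjusted p of at most 0.05. Hk2, Slc2a1 and Pfkm are filled under both scalings, while the values of Pfkp and Ldhb cross 0 when library size alone is used.

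Levels of different genes were compared per kb of merged exons. In the control oocytes Ldhb stood far above the others at 1811 ± 62.8 CPM per kb (SD, n = 4), followed by Pkm at 104 ± 21.8, Slc2a1 at 19.5 ± 4.74, Gpi1 at 13.3 ± 1.78 and Pfkm at 6.45 ± 0.369 CPM per kb. The lower end was held by Ldha at 2.49 ± 0.739, Pfkl at 2.24 ± 0.819, Pfkp at 1.45 ± 0.105, Hk2 at 0.852 ± 0.0384 and Hk1 at 0.0861 ± 0.0382 CPM per kb. The ranges of the neighbours Slc2a1 and Gpi1, Ldha and Pfkl, and Pfkl and Pfkp overlapped, and those of the other neighbours did not. Ldhb alone made up 90.8% to 94.3% of the summed level per kb of the 10 genes in control libraries and 91.7% to 94.5% in KO libraries. In CNOT7&8 KO oocytes Ldha, at 4.20 ± 1.92 CPM per kb, had moved above Pfkm at 3.71 ± 0.246, with overlapping ranges. Hk2, at 1.97 ± 0.300 CPM per kb, stood above Pfkp and Pfkl, which were both at 1.23 CPM per kb. The range of Hk2 overlapped that of Pfkl and not that of Pfkp. The length of the longest transcript in place of merged exons exchanged Slc2a1 and Gpi1 in both groups, placed Hk2 between Pfkl and Pfkp in the KO with overlapping ranges, and set the ratio of Ldhb to Pkm at 10.2 instead of 17.4.

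**Figure D3:**
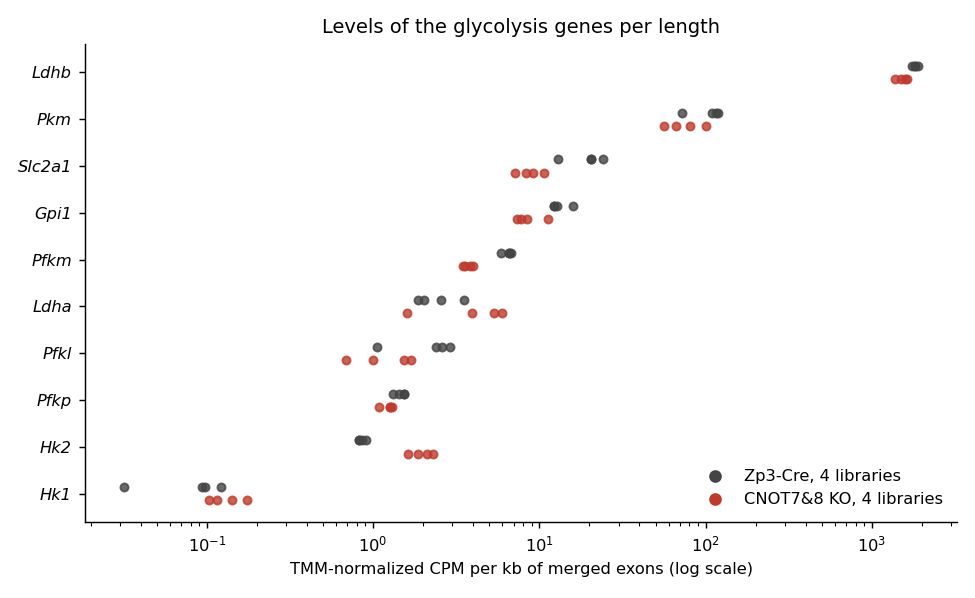
Level of each glycolysis gene per kb of merged exons in the 4 Zp3-Cre (grey) and 4 CNOT7&8 KO (red) libraries, in TMM-normalized CPM per kb on a log axis, ordered by the control mean. Ldhb lies between 1375 and 1889 CPM per kb in all 8 libraries, and Hk1 lies at most at 0.173.

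Ratios between related genes within a library do not depend on the scaling between libraries. Of 6 ratios compared, those of Pfkp to Pfkm and of Slc2a3 to Slc2a1 separated the groups. Pfkp was 0.259, 0.235, 0.1999 and 0.211 of the Pfkm level per kb in the controls and 0.343, 0.356, 0.317 and 0.313 in the KO. This is a shift of 0.56 on the log2 scale (SE 0.094, exact two-sided permutation p = 0.0286, 0.0857 after adjustment over the 6 ratios), so the platelet-type subunit took a larger share relative to the muscle-type subunit in each of the 4 KO libraries, while the adjusted p did not pass. Slc2a3, which encodes the high-affinity transporter GLUT3, stood at 0.00252 to 0.00470 of the Slc2a1 level in the controls and 0.0161 to 0.0543 in the KO (log2 difference 2.75, permutation p = 0.0286, adjusted 0.0857). The p of 0.0286 is the smallest these libraries allow, and 2 of the 6 ratios reached it. The ratio of Ldha to Ldhb was 0.000996 to 0.00202 in the controls and 0.00117 to 0.00378 in the KO, with overlap (log2 difference 0.90, permutation p = 0.0857). Pfkl to Pfkm differed by -0.052 on the log2 scale (permutation p = 0.943), Pfkp to Pfkl by 0.61 (p = 0.2) and Hk2 to Hk1 by 0.46 (p = 0.371), all with overlap.

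Another lactate dehydrogenase gene, Ldhc, known mainly from testis, was chosen for ratios after its values were seen and is given without a test of them. Ldhc was at 19.8, 9.38, 18.2 and 9.47 CPM in the controls and 62.0, 63.8, 66.0 and 71.6 CPM in the KO. The ratio of Ldhc to Ldhb per kb was 0.00318 to 0.00692 in the controls and 0.0250 to 0.0330 in the KO. Unlike Ldha, Ldhc was highest in KO replicate 4, so among the 2 minor subunits the KO libraries ranked in opposite order.

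**Figure D4:**
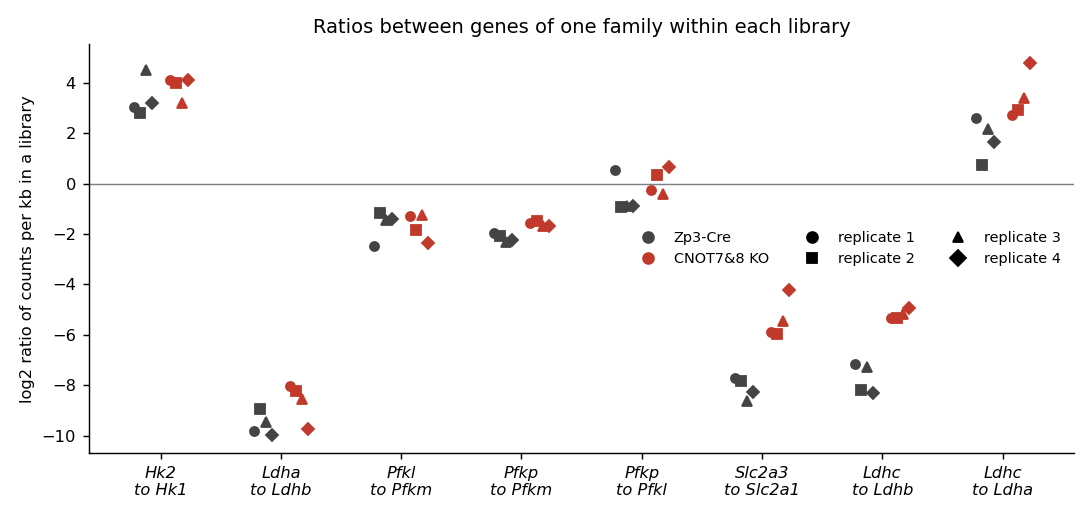
Log2 ratio of the counts per kb of related genes within each library, for Zp3-Cre (grey) and CNOT7&8 KO (red), with symbols marking the replicate. The ratios of Pfkp to Pfkm and of Slc2a3 to Slc2a1 are higher in every KO library, the ratios of Ldhc were chosen after their values were seen, and the other 4 ratios overlap.

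The remaining enzymes of the pathway moved in both directions. Of 20 other glycolytic enzymes considered here, 13 were tested, 5 rose and 2 fell, with a median log2 fold change of -0.046. These counts stand against 31.2% of all tested genes called higher and 24.1% called lower. Aldoa, the main aldolase, fell from 114 ± 25.5 to 49.3 ± 13.6 CPM (log2 fold change -1.21, edgeR adjusted p = 0.000493), and Pgk1, an ATP-yielding kinase, fell from 37.5 to 23.8 CPM (-0.66, adjusted p = 0.00542). By library size alone, 1 of these enzymes fell and 6 rose, where 13.6% of all tested genes were called lower and 40.2% higher. The 5 that rose were Ldhc (14.2 ± 5.55 to 65.8 ± 4.17 CPM, log2 fold change 2.21), Aldoc (0.422 to 4.92 CPM, 3.45), Hkdc1, Pgam1 (2.52 to 4.94 CPM, 0.98) and Gapdh (39.2 to 56.3 CPM, 0.52, adjusted p = 0.0437). Hkdc1, a hexokinase-like gene, had 2 counts over the 4 control libraries and 246 over the 4 KO libraries, a depth-corrected ratio of 145 with an exact 95% interval of 39.7 to 1204 that covers counting error only. Within the glucose-phosphorylating step, Hk2 and Hkdc1 thus rose, and Adpgk, an enzyme that uses ADP in place of ATP, was at 10.6 ± 1.08 CPM per kb in the controls and 10.2 ± 0.449 in the KO (log2 fold change -0.046, 95% interval -0.28 to 0.19). Adpgk, named here after its values were seen, was more abundant per kb than Hk1, Hk2 and Hkdc1 in both groups. Within the aldolase step, Aldoa fell and Aldoc rose, and per kb Aldoa remained the more abundant, at 16.9 against 1.51 CPM per kb in the KO. Bpgm, the bisphosphoglycerate mutase best known from red blood cells and also named after its values were seen, was at 408 ± 33.8 CPM per kb in the controls and 355 ± 19.5 in the KO. It stood between Ldhb and Pkm in level and did not pass (-0.20, adjusted p = 0.103). Tpi1 (-0.20) and Eno1 (-0.44) did not pass. Aldoa, Gapdh, Pgam1, Tpi1 and Eno1 have processed pseudogenes in the mouse, and the counts of such genes are uncertain to the extent that reads are shared. The 2 named Ldha pseudogenes in the table had 5 and 2 counts over all 8 libraries.

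**Figure D5:**
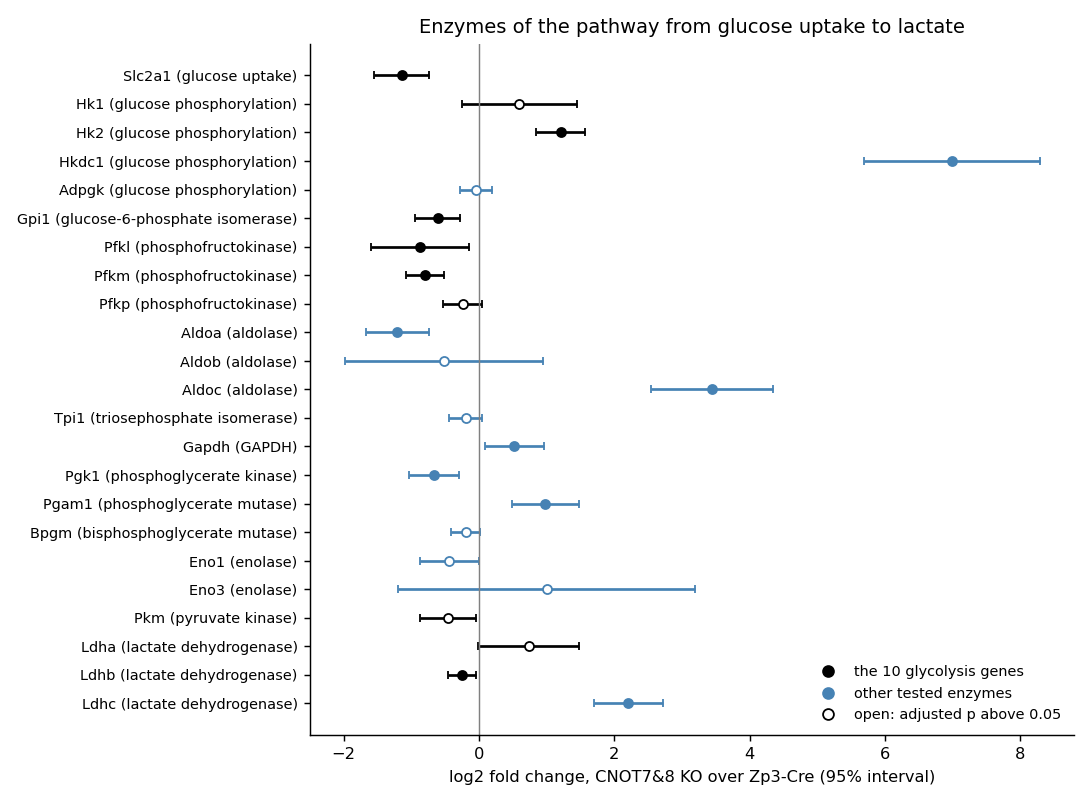
Log2 fold change, CNOT7&8 KO over Zp3-Cre, with 95% intervals, of Slc2a1 and the tested glycolytic enzymes considered here, ordered from glucose uptake to lactate. Black marks the 10 glycolysis genes, blue the other enzymes, and filled symbols passed at an adjusted p of at most 0.05. The aldolases and lactate dehydrogenase each hold genes that rose and genes that fell, and the fitted value of Hkdc1 rests on 2 control counts.

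Among 12 other glucose and related sugar transporters, 10 were tested, 4 rose and 3 fell. Over all tested genes, 31.2% were called higher and 24.1% lower. Slc2a12, a GLUT12 transporter, rose from 47.4 ± 5.88 to 127 ± 11.9 CPM (log2 fold change 1.41, edgeR adjusted p = 2.69e-06). Slc5a2, a sodium-coupled glucose transporter of the kidney, rose from 1.44 to 6.38 CPM (2.18) and Slc2a3 from 0.486 to 1.64 CPM (1.77). Slc2a4, the insulin-regulated transporter GLUT4, rose from 0.276 to 0.746 CPM (1.29, edgeR adjusted p = 0.0485). Its groups overlapped. It had 28 counts over the control libraries, 19 of them in 1 library, and 51 over the KO libraries. Slc2a13, a myo-inositol transporter, fell (-1.44), as did Slc2a9, which carries urate (-1.04), and Slc2a10 (-0.46, adjusted p = 0.0255, lost in 7 of 18 alternatives). Uptake of glucose itself was not measured.

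Of 8 regulators of glycolysis, 2 rose and 3 fell, where 31.2% of all tested genes were called higher and 24.1% lower. Txnip, an arrestin-like protein that restrains glucose uptake, rose from 1662 ± 177 to 2848 ± 165 CPM (log2 fold change 0.78, edgeR adjusted p = 7.28e-05), and Pfkfb4 rose from 0.565 to 1.24 CPM (1.15). Pfkfb3 and Pfkfb1, which set the amount of the phosphofructokinase activator fructose-2,6-bisphosphate, fell (-0.80 and -0.76), the latter narrowly (adjusted p = 0.0464, lost in 11 of 18 alternatives). Hif1a, the transcription factor of the hypoxic response, fell from 537 to 369 CPM (-0.54). By library size alone, 1 regulator fell and 3 rose, where 13.6% of all tested genes were called lower and 40.2% higher.

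Genes of the pathways next to glycolysis were counted in the same way. Their counts stand against the 31.2% of all tested genes called higher and the 24.1% called lower. In the tricarboxylic acid cycle, 9 of 18 genes fell and 2 rose, with a median log2 fold change of -0.30. Idh3b (-0.94), Sdhb (-0.89) and Fh1 (-0.85) fell the most, and Idh3g (0.46) and Idh2 (0.79, adjusted p = 0.0360) rose, with the Idh2 call lost in 8 of 18 alternatives. In the pentose phosphate pathway, 4 of 10 tested genes fell. They included G6pdx, its entry enzyme, from 812 ± 154 to 409 ± 22.8 CPM (log2 fold change -0.99, edgeR adjusted p = 5.15e-05), and the transketolases Tkt (-1.13) and Tktl2 (-0.97), while the transketolase-like gene Tktl1 rose from 0.314 to 8.68 CPM (4.70). Among genes of pyruvate and lactate transport and the pyruvate dehydrogenase complex, 3 of 19 tested rose and 3 fell. The monocarboxylate transporter Slc16a1 rose from 121 to 185 CPM (0.62), the phosphatase Pdp1, which activates the complex, rose (0.47), and the kinase Pdk4, which inactivates it, rose from 0.205 to 0.591 CPM (1.36, adjusted p = 0.0405). The groups overlapped for Pdp1 and Pdk4, and Pdk4 had 20 counts over the control libraries and 38 over the KO libraries. The subunits Dld (-0.81) and Dlat (-0.43) and the mitochondrial pyruvate carrier subunit Mpc1 (-0.65) fell. In gluconeogenesis and glycogen metabolism, 2 of 14 tested genes rose, Gys2 (2.42), a glycogen synthase, and Ugp2 (1.86), which makes UDP-glucose. The 4 that fell included Pygl (-1.96), a glycogen phosphorylase, Fbp1 (-1.06) and G6pc3 (-0.57, adjusted p = 0.0212, lost in 6 of 18 alternatives). The medians of these last lists were -0.24 for the pentose phosphate pathway, 0.00012 for pyruvate and lactate handling, and -0.34 for gluconeogenesis and glycogen. Scaling by library size alone, under which 13.6% of all tested genes were called lower and 40.2% higher, moved these counts: 5 genes of the tricarboxylic acid cycle fell and 4 rose, 1 gene of pyruvate and lactate handling fell and 8 rose, 2 genes of gluconeogenesis and glycogen fell and 4 rose, and 3 genes of the pentose phosphate pathway fell and 2 rose.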

How the data were processed

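The deposited table holds raw read counts per gene for 8 libraries. The authors made it from stranded, paired-end libraries, described as rRNA-depleted, with nf-core/rnaseq and STAR 2.6.1d on GRCm38. The kit named in the study's methods is, however, a stranded mRNA kit. The counting tool, annotation release and strand setting are not given in the sources used here. All 8 columns of counts matched a labelled sample, and levels and tests here were computed from these counts. Genes with at least 0.2 CPM in at least 2 libraries were kept, as in the study's methods, and 4 libraries were compared with 4 in edgeR 4.0.16 (TMM factors, quasi-likelihood test, R 4.3.3) with Benjamini-Hochberg adjustment over all 19241 genes. The fit was tested on simulated data. The study's methods name the edgeR exact test, which was run as an alternative, as was DESeq2 1.42.0. Single values and ratios (0.5 added to each count) were compared by exact two-sided permutation over 70 assignments in scipy 1.17.1. A value of 3 counts corresponds to 0.068 CPM in the deepest library and 0.347 CPM in the shallowest. Exon lengths and 3′UTRs came from GENCODE vM21, which held 98.2% of the table's gene identifiers. Same-numbered libraries did not deviate together and were not paired.

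The 10 genes and all gene lists were chosen with earlier results of these data known. The text names all 10, Cnot7 and Cnot8, and in each list up to 3 genes per direction that passed with the largest fold changes, provided their average level over the 8 libraries reached 1 CPM. Slc2a4, Pfkfb4, Pdk4, Pgam1 and Gapdh complete counts of 5 or fewer, and Adpgk, Bpgm, Tpi1, Eno1 and the markers given by name were chosen after their values were seen. In the lists, 1 gene is not reported here and was left out of the counts of its list.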

Additional observations from a re-analysis of the deposited data

How the results depend on the processing

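Hk2, Slc2a1 and Pfkm kept their direction and stayed past the threshold in all 18 alternatives. The count of the 10 genes that passed higher was 2 instead of 1 with scaling by library size alone, with TMM on genes of at least 10 CPM, with a filter of at least 1 count and without both Zp3-Cre replicate 1 and KO replicate 4, since Ldha passed too, and 1 to 2 when 1 library was left out. The share of all tested genes that passed higher moved from 31.2% to 40.2% by library size alone and 39.4% with TMM on genes of at least 10 CPM. It was 22.2% with a filter of at least 1 count, 31.8% without both libraries, and 28.1% to 32.3% when 1 library was left out. The count that passed lower was 5 in the reported fit. It was 2 by library size alone and with TMM on genes of at least 10 CPM, 3 with upper quartile factors, with only genes reaching 1 CPM in 4 libraries kept, and at an adjusted p of 0.01, 1 when a 2-fold change was required, and 3 to 6 when 1 library was left out. The share of all tested genes that passed lower moved as well, from 24.1% to 13.6% by library size alone. It was 14.9% with TMM on genes of at least 10 CPM and 20.3% with upper quartile factors. With only genes reaching 1 CPM in 4 libraries kept it was 29.0%, and 21.5% to 25.3% when 1 library was left out. No share is given for an adjusted p of 0.01. The count was 3 without Zp3-Cre replicate 2, 3 or 4 or without KO replicate 1 or 4, when Pfkl and Ldhb were lost, and 6 without Zp3-Cre replicate 1, when Pkm passed too. The cause was not tested. By library size alone Pfkp was 0.044 and Ldhb 0.024, and by TMM on genes of at least 10 CPM Pfkp was 0.010, each opposite in sign to the reported value. The log2 ratio of Pfkl to Pfkm ran from -0.34 to 0.17 when 1 library was left out. With the replicate number as a block, 3 genes passed lower, where 21.8% of all tested genes did. Pfkl (edgeR adjusted p = 0.0505) and Ldhb (0.110) did not pass. The numbers were not treated as pairs, since same-numbered libraries correlated at -0.072, -0.042, 0.11 and -0.12 in their deviations from the group means. Within such blocks the smallest permutation p is 0.125. Hk1, with 4 to 31 counts, limits what depth can show, and was not kept when 1 CPM in 4 libraries was required.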
